A study of Anguilla anguilla with 3 samples.

Results

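Fatty acid-binding proteins carry lipids inside cells, and their transcripts were followed here in the ovary of the European eel (Anguilla anguilla). Of 45974 predicted genes, 2 had the name fabp4 or the phrase "fatty acid-binding protein" in their main description: fabp4 (g3192), the adipocyte type, and fa10a (g24863), the fish liver basic type. In 7 other genes of the family the authors' main description drops the word "protein" or uses another name. They are fabpi (g17208), the intestinal type, 2 heart-type fabph genes (g8706 and g8299), 2 brain-type fabp7 genes (g1998 and g20827), fabpl (g36614), the liver type, and fabp6 (g24302), the ileal type also called gastrotropin. All 9 are described. A mitochondrial aspartate aminotransferase fragment, aatm (g33527), carries the phrase only among its alternate names and was left out of the family. It stands, with 4 other aatm rows, in the list of uptake and release genes given further on. The family was selected on the levels of fabp4 in these same 3 libraries, seen in earlier results, so the values are given as a description.

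Ovary RNA was sequenced from 1 yellow eel, the growing stage, 1 prepubertal silver eel, on its way to becoming a seaward migrant, and 1 matured eel sampled after spawning. The yellow eel is listed as collected at Lake Veerse on 21 April 2010 and the matured eel at the same lake on 26 May 2010. The silver eel is listed as collected at Lake Grevelingen on 7 December 2008. Both lakes are in The Netherlands. Strain, age and treatment are not given in the sources used here, nor how the matured eel came to maturity. RNA of 3 parts of each gonad was pooled, so every library is 1 animal, and stage, lake and season cannot be told apart for the silver eel. Gene counts summed to 27811764 (yellow), 41426808 (silver) and 30137882 (matured) reads. Oocyte markers were present in each library, 26 of 26 genes with at least 1 CPM. This unit counts reads after the libraries were scaled to equal size. No stage has a second eel, so differences have no replicate check and no test was made. The 95% intervals cover counting error only, in reads that are not independent molecules.

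Fatty acid-binding proteins are small proteins of the cytosol that enclose a long-chain fatty acid, or a bile acid or other lipid, in a barrel-shaped fold. They move it between membranes, droplets, mitochondria and the nucleus, where some of them hand it to the peroxisome proliferator-activated receptors. Each type is named after the mammalian tissue in which it was first found, and most occur in several. The growing fish oocyte stores lipid droplets and yolk, and eel oocytes hold many such droplets before yolk is laid down.

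The fabp4 transcript was the most abundant of the family in the yellow and silver libraries and was highest in the silver library. It had 394 CPM in the yellow library (95% interval 387 to 402), 1527 CPM in the silver library (1515 to 1540) and 219 CPM in the matured library (214 to 224). The silver eel thus stood well above both other eels, and the matured eel lowest. The silver level was 3.87-fold the yellow one (3.79 to 3.96), just under the 4-fold mark used for counting genes. The matured level was 6.98-fold lower than the silver level (6.81 to 7.15) and 1.80-fold lower than the yellow level (1.75 to 1.86). These comparisons share libraries, so a high value in the silver library enters both the first and the second. In bulk tissue, fewer cells of a type and less RNA per cell cannot be told apart.

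Per transcript length, in the authors' RPKM (reads relative to transcript length and library total), fabp4 stood at 520.3 in the yellow library, at 1918 in the silver library and at 347 in the matured library. That placed it 148th, 24th and 222nd among all 45974 genes. All of its reads aligned uniquely, 10491, 57606 and 7576 in the yellow, silver and matured libraries, so reads with several alignments do not enter these values. Reads of a similar copy missing from the reference could not be recognised in this way. Its name comes from a bovine protein, the best hit of the authors' search, with a lowest e-value of 1.14e-28. The deposited similarity was 72.5%, which is not stated to be for this hit alone. Which of the 6 eel genes with a fabp symbol in the RefSeq annotation (fabp10a, fabp3, fabp4a, fabp4b, fabp6 and fabp7b) it is was not analysed here, since the table's identifiers do not occur there.

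The gene found by the phrase in its description, fa10a, was barely detected. This type is a main carrier of bile acids and fatty acids in fish liver. It had 7 reads from the yellow eel, 19 from the silver eel and 17 from the matured eel, or 0.263, 0.504 and 0.491 CPM. Its silver to yellow ratio was 1.91 with an interval of 0.771 to 5.39, its matured to silver ratio 0.975 (0.476 to 1.98) and its matured to yellow ratio 1.87 (0.736 to 5.33). At this depth no difference between the 3 libraries was detectable.

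**Figure D1:**
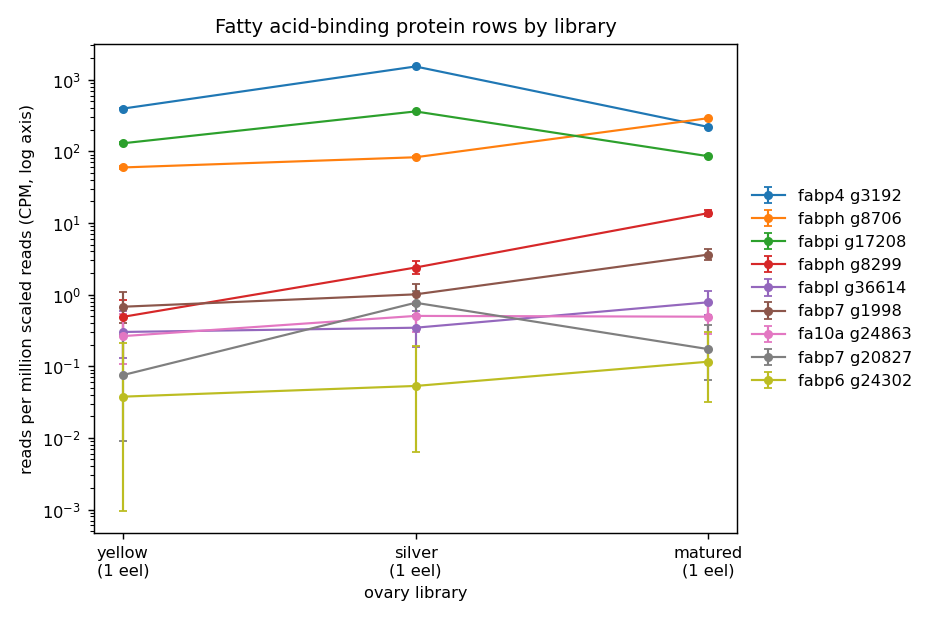
Level of the 9 fatty acid-binding protein genes in the yellow, silver and matured ovary libraries (1 eel each), in CPM on a log axis. Points are scaled counts, bars exact Poisson 95% intervals of the count, and lines join the same gene. fabp4 peaks at 1527 CPM in the silver library, fabpi follows the same course, and both fabph genes are highest in the matured library.

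The intestinal-type gene fabpi, which in mammals binds dietary fatty acids in enterocytes, followed the same order of libraries as fabp4. It had 129 CPM in the yellow library (125 to 134), 360.2 CPM in the silver library (354 to 366) and 85.4 CPM in the matured library (82.4 to 88.6). The silver eel was again highest and the matured eel lowest. The silver level was 2.78-fold the yellow one (2.68 to 2.89), and the matured level was 4.22-fold lower than the silver one (4.05 to 4.39). Against the yellow library the matured level was 1.51-fold lower (1.44 to 1.59).

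The heart-type gene fabph (g8706) showed another order, with the matured eel highest. This type delivers fatty acids to mitochondria in heart and skeletal muscle of mammals. It had 59.5 CPM in the yellow library (56.6 to 62.5), 82.6 CPM in the silver library (79.7 to 85.5) and 290 CPM in the matured library (284 to 295). The matured level was 3.51-fold the silver one (3.37 to 3.65) and 4.87-fold the yellow one (4.62 to 5.14), while silver and yellow differed 1.39-fold (1.31 to 1.48). The second fabph gene, g8299, had 0.489 CPM in the yellow eel, 2.39 CPM in the silver eel and 13.7 CPM in the matured eel. Its level was thus far lower but its libraries stood in the same order, with 28.03-fold more in the matured eel than in the yellow eel (16.2 to 53.04). From silver to matured it differed 5.74-fold (4.57 to 7.27), and from yellow to silver 4.88-fold (2.72 to 9.53).

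The 5 genes that stayed under 10 CPM in every library lay between 0.0376 and 3.61 CPM. The brain-type gene fabp7 (g1998), known from radial glia in mammals, had 18, 38 and 125 reads in the yellow, silver and matured libraries, or 0.677, 1.01 and 3.61 CPM. It was 3.59-fold higher in the matured eel than in the silver eel (2.48 to 5.30) and 5.34-fold higher than in the yellow eel (3.24 to 9.30), while silver and yellow were within counting error (ratio 1.49, 0.829 to 2.77). The other fabp7 gene, g20827, had 2, 29 and 6 reads, a silver to yellow ratio of 10.2 with a wide interval (2.59 to 88.5), and its highest level, 0.769 CPM, in the silver library. The liver-type gene fabpl had 8, 13 and 27 reads on a predicted transcript of 174 bases, the shortest of the family, with a matured to yellow ratio of 2.59 (1.15 to 6.61). The bile acid carrier fabp6 had 1, 2 and 4 reads, at or near the floor of 3 counts taken as the limit of detection.

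**Figure D2:**
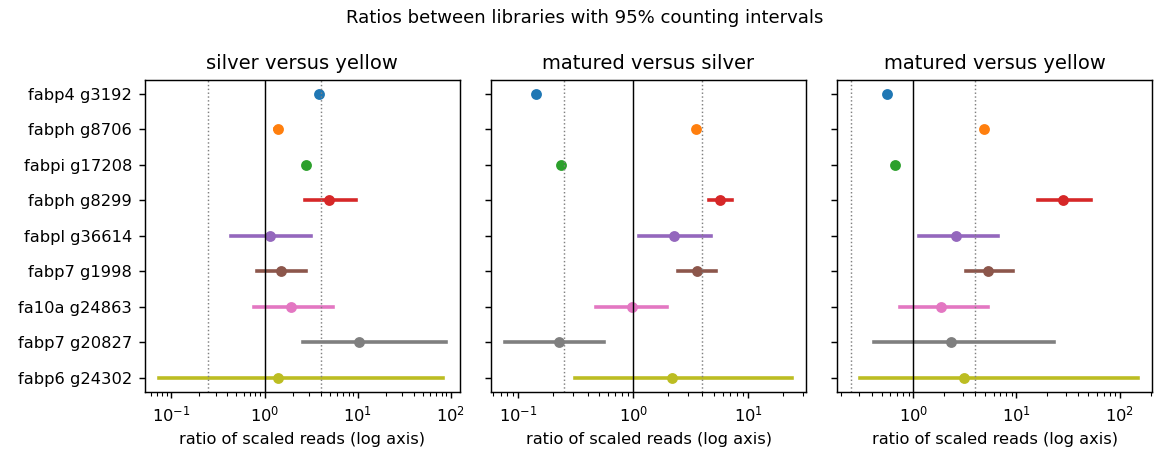
Ratio of scaled reads between libraries for each of the 9 genes (points) with exact 95% counting intervals (bars, hidden by the point where narrow), on a log axis, for silver versus yellow, matured versus silver and matured versus yellow. The solid line marks equal levels and the dotted lines 4-fold. In matured versus silver, fabp4 and fabpi lie on the lower side and the 2 fabph genes on the higher side.

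The make-up of the family differed between the libraries. By RPKM, fabp4 was 74.0% of the summed level of the 9 genes in the yellow library and 83.7% in the silver library, but 37.3% in the matured library. The heart-type gene fabph (g8706) was 11.6%, 4.71% and 51.4% of the sum, and so took the lead in the matured library. The share of fabpi was 14.0%, 11.3% and 8.36%. The sum itself was 703 RPKM for the yellow eel, 2293 for the silver eel and 930.5 for the matured eel, and the family took 0.0560%, 0.180% and 0.0704% of all reads.

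Ratios between family genes within a library do not depend on how libraries are scaled. Per length, fabp4 exceeded fabph (g8706) 6.36-fold in the yellow library and 17.8-fold in the silver library, whereas in the matured library fabph exceeded fabp4 1.38-fold. Relative to fabp4, fabph (g8706) was 24.5-fold higher in the matured than in the silver eel (23.4 to 25.7) and 8.77-fold higher than in the yellow eel (8.25 to 9.32). The gene fabpi kept closer to fabp4. The per-length excess of fabp4 over it was 5.30-fold, 7.38-fold and 4.46-fold in the yellow, silver and matured libraries.

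**Figure D3:**
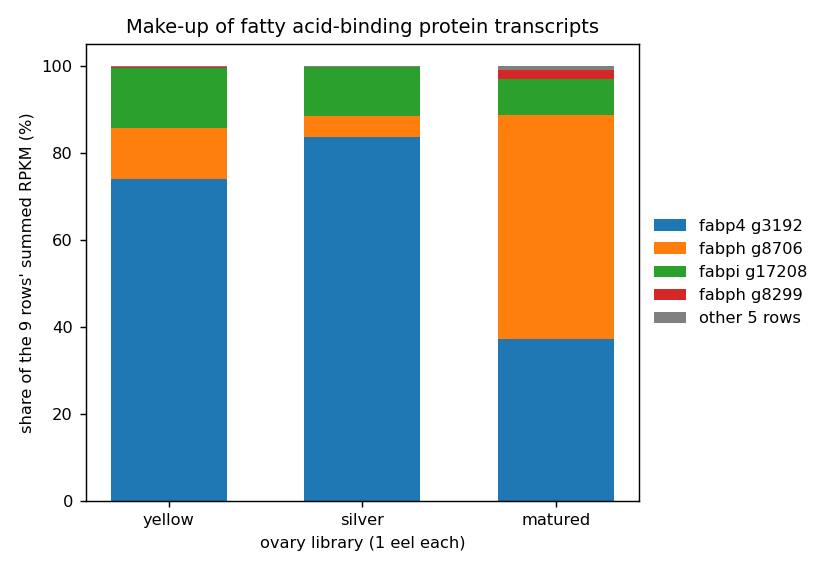
Share of each fatty acid-binding protein gene in the summed RPKM of the 9 genes (y axis, percent) for the yellow, silver and matured ovary libraries (1 eel each). fabp4 makes up 74.0% and 83.7% of the yellow and silver bars, and fabph g8706 makes up 51.4% of the matured bar.

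Genes were counted as higher or lower from a 4-fold ratio upwards, computed after 1 CPM had been added to each library, provided that the higher of the 2 levels was 10 CPM or more. In silver versus yellow, 0 of the 9 genes were counted as higher and 0 as lower, among 3 that reached 10 CPM, against 3.69% and 1.43% of the 12462 such genes overall. In matured versus silver, fabp4 and fabpi were counted as lower and fabph (g8299) as higher, out of 4 that reached 10 CPM. The shares over all 12573 genes were 4.61% lower and 2.23% higher. In matured versus yellow, both fabph genes were counted as higher and 0 genes as lower, against 3.39% higher and 2.59% lower of 12553 genes. The gene fabph (g8299) reached 10 CPM in the matured library alone, so these 2 comparisons could not count it as lower. Of the 2 genes found by the name fabp4 or by the phrase, fabp4 alone reached 10 CPM, and it was counted in matured versus silver only.

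The ratio of fabp4 stood at percentile 95.9 of all genes that reached 10 CPM in silver versus yellow, 1.24 in matured versus silver and 19.7 in matured versus yellow. The respective medians over all genes were a log2 ratio of 0.09, -0.21 and -0.14, and over the fatty acid-binding protein genes that reached 10 CPM they were 1.47, -0.13 and 0.84. The values -0.13 and 0.84 include fabph (g8299), which reached 10 CPM only in the matured library. The family medians also include fabp4, on whose levels in these same libraries the family was selected. They and the percentiles of fabp4 are therefore a description and not a test. With library totals in place of the scaling factors, the median of all genes in matured versus silver moved to 0.16, the count of all genes moved from 281 higher and 579 lower to 444 higher and 327 lower, fabpi (3.34-fold) dropped out of the lower genes and fabph (g8706, 4.43-fold) entered the higher ones. The order of libraries of fabp4, fabpi and both fabph genes was the same under that scaling. In the authors' deposited table, from DESeq run without replicates, fabp4 was 7.23-fold lower in matured versus silver (p = 0.0187, adjusted p = 0.857). The lowest of the 27 adjusted p-values of the family in that table was 0.229, for fabph (g8299) in matured versus yellow, and 25 were 1.

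Several cell types are known to hold fatty acid-binding proteins, and their markers were read beside these values. For the adipocyte list, 5 of 6 names were found, in 12 rows. Its summed level was 252 CPM in the yellow eel, 175 CPM in the silver eel and 276 CPM in the matured eel. Most of the sum was the lipid droplet protein cidec (166, 106 and 181 CPM), and other rows differed in order. The defining hormone adiponectin, adipo, had 12, 29 and 6 reads, or 0.451, 0.769 and 0.173 CPM, low levels in the order of fabp4. The droplet protein plin1 had 15.6, 14.9 and 11.7 CPM. Hormone-sensitive lipase, lips, was at or under 0.231 CPM in its 3 rows, and 2 of these had no reads in the matured library. The endothelial list summed to 46.7, 44.1 and 40.7 CPM over 14 rows, but single rows ran in opposite directions. The cadherin cadh5 (g17569) had 21.1, 18.8 and 4.02 CPM, and the receptor tie2 (g1122) had 0.338, 0.981 and 8.64 CPM.

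The macrophage and leukocyte list, 10 of 12 names in 18 rows, summed to 705 CPM in the yellow eel, 217 CPM in the silver eel and 422 CPM in the matured eel, of which 649, 117 and 144 CPM was the lysosomal protein cd68. At least 1 CPM was reached by 5, 11 and 16 of the 18 rows, so more of these markers were seen in the matured eel, where both fabph genes were highest. The macrophage receptor csf1r (g20676) had 1, 13 and 75 reads, and its second row had none in any library. The granulosa and theca list, 9 of 11 names in 19 rows, stood in the same order of libraries as fabph, with sums of 23.7, 98.1 and 526 CPM. Of these, the cp17a row g22995 alone had 2.78, 31.1 and 302 CPM. Not all rows shared this order. The cp19a rows g9348 and g9349 were highest in the silver eel, at 0.928 and 1.43 CPM. Striated muscle markers, 24 rows, summed to 55.4, 18.1 and 21.7 CPM. Most of the yellow sum was myh7 (g10171), with 38.3, 6.26 and 1.13 CPM, and tnnc2 (g1417), with 12.03, 6.23 and 2.83 CPM. Other rows differed in order, and 3, 3 and 7 of the 24 rows reached at least 1 CPM, most in the matured eel. Hepatocyte markers, 5 rows, summed to 5.53, 11.2 and 7.08 CPM, and glia markers, 8 rows, to 76.4, 76.8 and 74.2 CPM. The erythrocyte list, 15 rows, summed to 7.22, 19.7 and 16.2 CPM. The oocyte list, 26 rows, was by far the largest, with sums of 58096, 46822 and 39091 CPM. Its rows differed in order. The oocyte kinase mos had 419, 1108 and 219 CPM, in the order of fabp4. In contrast, zar1 (g19436) had 828, 417 and 637 CPM, lowest in the silver eel. The more abundant zar1 row, g14809, had 1745, 1448 and 445 CPM, lowest in the matured eel. The part of these cells in the fatty acid-binding protein levels was not tested.

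The closest relatives of the family are the cytosolic carriers of retinol and retinoic acid, which share its fold. They were analysed in 7 rows, of which ret7 (g21210), a retinoid-binding protein, was the most abundant with 964 RPKM in the yellow eel, 1036 in the silver eel and 478 in the matured eel. Per length it thus exceeded fabp4 in the yellow and matured libraries but not in the silver library. The neighbouring identifier g21211, also ret7, had 5.41, 27.8 and 2.49 CPM, highest in the silver eel like fabp4. It was named for its large ratios and reached 10 CPM in the silver library alone. It was 5.13-fold higher in silver than in yellow (4.31 to 6.15) and 11.2-fold lower in matured than in silver (8.96 to 14.1). The retinol carrier ret2 (g7158) went the other way and was highest in the matured eel. It had 11.8, 4.48 and 107 CPM, 23.9-fold more in matured than in silver (20.5 to 28.1).

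Genes that release, take up and activate fatty acids stand before and after the binding proteins in the pathway. In the list of uptake and release, 12 of 39 rows reached 10 CPM, and 0 were counted in silver versus yellow. At the shares over all genes given above, few would be counted in a list this short. Lipoprotein lipase, lipl (g9732), which frees fatty acids from lipoproteins, had 1.80, 1.33 and 25.1 CPM in the yellow, silver and matured libraries. It was 18.9-fold higher in the matured than in the silver eel (14.2 to 25.7). The membrane protein caveolin-1, cav1 (g643), had 10.1, 26.7 and 83.7 CPM, and was 8.25-fold higher in matured than in yellow (7.28 to 9.38). Both of these rows were highest in the matured library, as the heart-type genes were. They were named for their large ratios, and lipl (g9732) reached 10 CPM in the matured library alone. The shared order therefore follows in part from how they were picked. Other copies did not rise from silver to matured in CPM. The cav1 gene g13887 had 18.3, 41.3 and 36.5 CPM, and the lipl gene g9731 had 0.451, 2.86 and 2.80 CPM. Which of silver and matured was higher depended on the scaling. By RPKM the matured eel was highest for g13887 (15.1 silver, 16.8 matured) and for g9731 (1.55 and 1.92). The counts of g9731 were close, with 108 reads in silver and 97 in matured. The 3 rows of the fatty acid translocase cd36 stayed at or below 3.46 CPM in every library.

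In the activation and acyl-CoA binding list, 3 of the 14 rows that reached 10 CPM were counted as lower in matured versus yellow and 0 as higher, beside 2.59% lower over all genes. With library totals only g24487 of these 3 was counted as lower, and acsl1 (g12915) was counted as higher. The 3 were acbg2 (g24487 and g30980) and acsl1 (g39066), ligases that join fatty acids to coenzyme A. In this comparison g30980 and g39066 reached 10 CPM only through the yellow library, so they could not be counted as higher. The row g24487 had 66.04, 17.8 and 11.3 CPM, and g39066 had 11.99, 10.2 and 2.23 CPM. The acsl1 gene g12915 ran the other way, with 8.57, 27.97 and 35.1 CPM, while the most abundant acsl1 gene, g17628, had 149.8, 144 and 37.9 CPM. Another ligase, acsl5 (g7748), had 17.9, 30.2 and 4.91 CPM and was counted as lower in matured versus silver, at 6.15-fold (5.23 to 7.27). Its highest library was the silver one, as for fabp4, but it was named for its large ratio. In matured versus silver it reached 10 CPM only through the silver library, so it could not be counted as higher. The acyl-CoA-binding protein acbp (g7682), the cytosolic carrier of activated fatty acids, was picked after its values were seen. It had 695 CPM in the yellow eel, 1270 CPM in the silver eel and 456 CPM in the matured eel, the same order of libraries as fabp4, and 1024 RPKM against 1918 RPKM of fabp4 in the silver library. The median log2 ratios of the list were -0.63 in matured versus silver and -0.83 in matured versus yellow, and in silver versus yellow -0.07, which turned to 0.06 with a minimum of 1 CPM.

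Fatty acid oxidation genes were counted in neither direction in any comparison, 0 of 29, 30 and 28 rows that reached 10 CPM, with median log2 ratios of 0.28, -0.25 and 0.13, of which the second turned to 0.08 with library totals or RPKM. Lipid storage genes gave 0 of 24, 25 and 24, with medians of -0.04, 0.04 and 0.09, of which the second turned to -0.06 with unique reads and the third to -0.01 with no minimum. The shares of all genes counted, given above for each comparison, were small. Lists of this size would hold few such rows at those shares, so the counts of 0 do not show stable levels. The desaturase acod (g5657), which makes monounsaturated fatty acids, had 1.69, 13.3 and 2.20 CPM and was highest in the silver eel, 7.84-fold above yellow (5.77 to 10.9). The second acod gene, g7190, had 21.01, 12.6 and 4.02 CPM, highest in the yellow eel. The elongase elov1 (g6232) had 1.62, 4.37 and 21.6 CPM, in the order of the heart-type genes, and was 13.4-fold higher in matured than in yellow (9.83 to 18.6). This elov1 row reached 10 CPM in the matured library alone, and acod (g5657) in the silver library alone. Both were named for their large ratios and could not have been counted the other way. The more abundant elov1 gene, g13764, ran the opposite way, with 125, 89.9 and 46.3 CPM. The medians of the synthesis list were -0.16, -0.39 and 0.07, and the second turned to 1.06 with RPKM, to 0.48 with a minimum of 1 CPM and to 0.26 with no minimum.

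Among nuclear receptors that respond to lipids, pparg (g9), which drives fat cell genes including FABP4 in mammals, had 3.42 CPM in the yellow eel, 1.86 CPM in the silver eel and 13.9 CPM in the matured eel. It was 7.50-fold higher in matured than in silver (5.83 to 9.79), and its lowest library was the silver one, in which fabp4 was highest. This pparg row was named for its large ratios and reached 10 CPM in the matured library alone. It could therefore not have been counted as lower there. Whether it acts on fabp4 was not tested. The retinoic acid receptor rarb (g23582) had 90.2, 94.9 and 18.4 CPM and was 5.15-fold lower in matured than in silver (4.73 to 5.61), a call lost with library totals. A second rarb gene, g5924, had 7.18, 21.1 and 16.7 CPM, higher in the matured than in the yellow eel. Of the 28 rows of this list 4, 7 and 7 reached 10 CPM, some only through the library in which they were high. The medians over them were 1.16, 0.20 and 1.11, and with a minimum of 1 CPM the medians were 0.10, 0.08 and 0.42. With RPKM the minimum of 10 applied on the RPKM scale, which only rarb (g23582) and rxrg (g31146) reached. The RPKM medians, -0.35, -1.39 and -1.74, are therefore over a different set of rows. Over all 7 lists together, 2 of 99 rows were counted as higher and 0 as lower in silver versus yellow, 4 and 4 of 104 in matured versus silver, and 4 and 5 of 98 in matured versus yellow. The shares over all genes were 3.69% and 1.43%, 2.23% and 4.61%, and 3.39% and 2.59%. With library totals the 5 lower rows in matured versus yellow became 1.

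**Figure D4:**
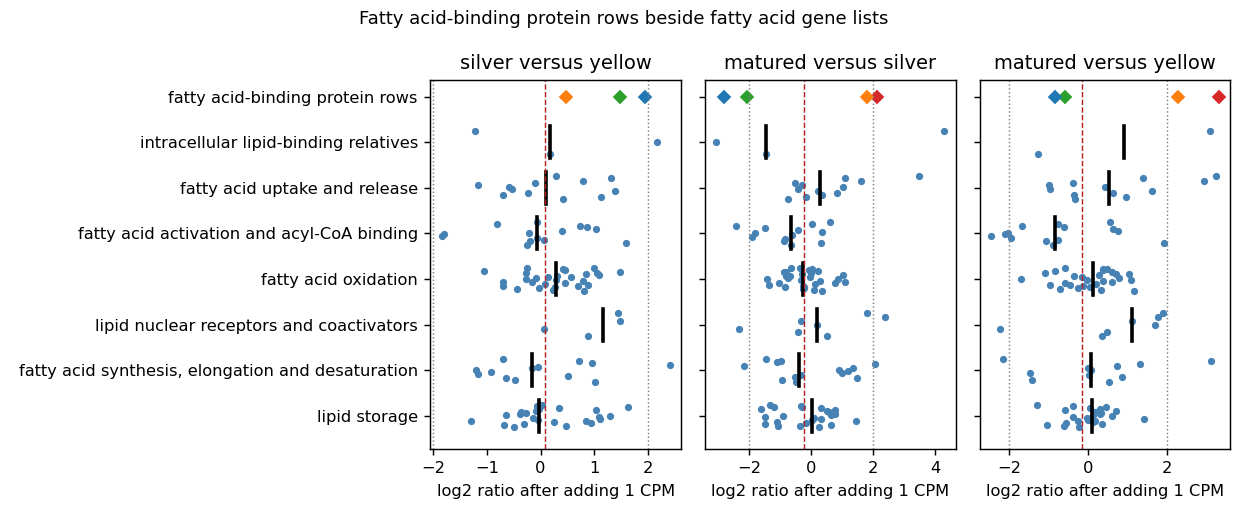
Log2 ratio after adding 1 CPM of each gene that reached 10 CPM in either library, for the fatty acid-binding protein genes (diamonds, coloured as in the plot of levels) and the 7 lists (dots, with the list's median as a black bar), in silver versus yellow, matured versus silver and matured versus yellow. The red dashed line is the median of all genes (0.09, -0.21 and -0.14) and the dotted lines mark 4-fold. In matured versus silver the diamonds fall into fabp4 and fabpi on the left and the 2 fabph genes on the right.

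The named genes whose course over the 3 libraries was most like that of fabp4 were sought among 11702 candidates by the distance between centred log2 levels after adding 1 CPM. The 5 nearest were aapk1 (g7456), a catalytic subunit of the energy sensor AMP-activated protein kinase, shsa1 (g1775), a shisa protein, kat1 (g738), a kynurenine transaminase, c1ql4 (g10415), a C1q-like protein, and cdd (g21523), cytidine deaminase. Their distances were 0.05, 0.06, 0.06, 0.10 and 0.12 log2 units. The gene aapk1 had 36.8, 147 and 19.2 CPM, close to the proportions of fabp4 at a lower level. With only 3 libraries many genes come close, and 23 candidates lay within 0.25 of fabp4 and 152 within 0.25 of fabpi.

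Nearest to fabpi were ck046, m1i1b, fa76a, aedo and tmed8, of which m1i1b (g10130), a homologue of MID1-interacting protein, which promotes fatty acid synthesis in mammals, had 420 CPM in the yellow eel, 1201 CPM in the silver eel and 284 CPM in the matured eel. Nearest to fabph (g8706) were sesn3, the membrane-binding annexin anxa2, the myosin light chain myl9, tnf12 and hs90a, at distances of 0.05 to 0.08. Nearest to fabph (g8299) were dhb1, an estradiol 17-beta-dehydrogenase with 6.20, 17.1 and 71.1 CPM, the beta-2-microglobulin b2mg, the phosphatase dus2, elov1 and the matrix proteoglycan decorin, pgs2, at 0.11 to 0.18. Candidates within 0.25 numbered 33 for g8706 and 13 for g8299.

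The authors' raw Gene Ontology mappings give "fatty acid binding" to 5 of the 9 genes, fabpi, fabp6, fabp4, fabpl and fabph (g8299), among 51 rows of the table that hold this term. They give "long-chain fatty acid transport" to 5, and "fat cell differentiation" to 5, which are fabp4, both fabp7 and both fabph genes. The genes that share the last term differed in their course, since fabp4 was highest in the silver library and both fabph genes in the matured library.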

How the data were processed

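Ovary RNA of 3 eels, 1 per stage, was measured by mRNA sequencing from 10 micrograms of total RNA each, per the labels' protocols. Genes were predicted with Augustus, named with Blast2GO from similar proteins and counted with CLC bio, per the file headers. Tools named in the submitters' processing notes, with no stated role, are TopHat2 2.0.5, HTSeq, DESeq, CASAVA and SAMtools 0.1.18. No genome build is named in the sources used here. Counts are the authors' corrected total reads, which include reads with several alignments, beside their unique reads. RPKM values are the authors', per longest transcript and library total. DESeq gave the fold as a ratio, an adjusted log2 value and the p-values that the authors deposited. The adjusted log2 value is not the log2 of the deposited ratio. Similarity, a fraction, was deposited by the authors from Blast2GO and is printed as a percent. The line of column totals and 1 blank line were left out.

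Counts were scaled with TMM factors (0.957 yellow, 0.910 silver, 1.15 matured) from edgeR 4.0.16 in R 4.3.3. Ratios carry exact conditional binomial (Clopper-Pearson) 95% intervals and levels exact Poisson ones. The edgeR test planned for counts needs replicates and was not run. Python 3.11.15 with scipy 1.17.1, pandas 2.3.3, numpy 2.4.6 and matplotlib 3.10.9 did the rest, and the steps were tested on simulated data.

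The family, the lists and the markers were chosen with earlier results of these data known. Some entries of the retinoid list are not reported here. Genes named are the 9 family genes, from each list up to 3 rows of largest log2 ratio at 10 CPM or more, and the 5 nearest in course. Beyond this rule, cd36 was added because of its role. Added after their values were seen were acbp, other copies of named genes (elov1 g13764, cav1 g13887, lipl g9731) and some cell type markers. Alternatives were DESeq2 1.42.0 size factors, library totals, RPKM, unique reads, pseudocounts of 0.1 and 5 CPM, minimums of 1 and 0 CPM and a 2-fold threshold.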

Additional observations from a re-analysis of the deposited data

How the results depend on the processing

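The order of the libraries for fabp4, silver above yellow above matured, was the same under DESeq2 size factors, library totals, the authors' RPKM and unique reads. Its ratio in silver versus yellow was 3.69 with library totals or RPKM. In matured versus silver the ratio, 0.143 as reported, was 0.138 with DESeq2 size factors and 0.181 with library totals or RPKM, and in matured versus yellow, 0.555 as reported, it was 0.666 with the latter. Its level was 377 CPM (yellow), 1391 CPM (silver) and 251 CPM (matured) with library totals or RPKM, 402 CPM (yellow) and 1558 CPM (silver) with unique reads, and 1553 CPM (silver) with DESeq2 size factors. For fa10a each of these values stayed inside its counting interval.

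With a 2-fold threshold, fabp4 was counted as higher in silver versus yellow (1 of the 2 genes of the naming rule), as were 2 of the 9 family genes. In matured versus silver, 2 family genes were higher with library totals, RPKM or a 2-fold threshold and 0 with a pseudocount of 5 CPM, and 1 was lower with library totals or RPKM. In matured versus yellow 1 was higher with a pseudocount of 5 CPM. Over the 7 lists, silver versus yellow gave 0 rows higher with RPKM or a pseudocount of 5 CPM and 19 with a 2-fold threshold, and 1 lower with a pseudocount of 0.1 CPM and 8 with a 2-fold threshold. Matured versus silver gave 2 higher with RPKM, 2 with a pseudocount of 5 CPM and 14 with a 2-fold threshold, and 2, 1, 2 and 20 lower with library totals, RPKM, a pseudocount of 5 CPM and a 2-fold threshold. Matured versus yellow gave 16 higher with a 2-fold threshold, and 1, 2, 2 and 15 lower under the same 4 settings. Over all genes in silver versus yellow, RPKM gave 322 higher and 312 lower against 460 and 178. Of 189 list medians under the alternatives, 18 had another sign than the reported one, among them the receptor list with RPKM in each comparison. The cause was not tested.

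No paired analysis was possible because each stage has 1 eel, and no eel was left out for the same reason. Depth limits the statements on fa10a, fabpl, fabp6 and fabp7 (g20827), which had 1 to 29 reads per library. RPKM settings used the same numbers as thresholds on the RPKM scale.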
